A study of Mus musculus with 35 samples.

Results

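The genes described here are 9 genes of developing GABAergic neurons, taken by name from the 55401 genes counted in CD45+ microglia. They are the homeobox genes Dlx1, Dlx2, Dlx5 and Dlx6, the antisense long non-coding RNA Dlx6os1, the zinc-finger genes Sp8 and Sp9, and the glutamate decarboxylase genes Gad1 and Gad2. All 9 had counts and passed the filter on low levels, as did 17612 genes in all. The cells came from whole brains of wild-type, untreated C57BL/6 mice of both sexes at P6, P15 and 8 weeks. They were held by antibodies to CD45, a surface protein of immune cells, in an immunopanning dish and scraped off it for RNA extraction. Each mouse gave 1 mRNA library. The 34 mice compared were 4 females and 6 males at P6, 6 females and 6 males at P15, and 6 females and 6 males at 8 weeks. The study removed 1 mouse as an outlier without naming it in its text. P6 female 6 is the mouse absent from its supplementary sample data, and was taken as that mouse and is given apart.

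DLX proteins are homeodomain transcription factors that specify GABAergic neurons in the embryonic ventral forebrain. Dlx genes lie in pairs that share enhancers, and the DLX proteins activate Gad1 and Gad2, whose enzymes make the transmitter GABA from glutamate. Sp8 and Sp9 act in the same lineage, and both stay active after birth in the neuroblasts that migrate from the ventricular wall to the olfactory bulb. Microglia come from the yolk sac, and none of the 9 genes belongs to their known programme.

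The libraries held a strong microglial signature with RNA of genes typical of other brain cells beside it. All 8 microglial marker genes were detected in every library, and their summed level ran from 10714 to 19613 CPM (library-scaled counts with TMM factors) at P6, from 21282 to 45648 CPM at P15 and from 29419 to 43861 CPM at 8 weeks. The 18 migrating neuroblast genes summed to between 1687 and 4648 CPM at P6, and to between 591 and 849 CPM at 8 weeks. Much of the later sum was Sox4, with a mean of 424 CPM at P6 and 322 CPM at 8 weeks, whereas Dcx had means of 242 and 3.12 CPM. The 7 mature neuron genes summed to between 88.1 and 253 CPM at P6 and between 60.4 and 321 CPM at 8 weeks. The part of other cells in the levels below was not tested. In bulk RNA, fewer cells of a type and less RNA per cell cannot be told apart. The total count per mouse lay between 23316107 and 38965078, so that 3 counts, taken as the floor, were worth 0.0770 to 0.129 CPM.

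Of the 9 genes, 5 lie on chromosome 2 (GRCm38). Dlx1 (chr2:71528113-71533981) and Dlx2 (chr2:71543408-71546754) stand on opposite strands 9426 bases apart, Sp9 starts at 73271925, and Gad1 and Gad2 lie farther upstream on the same chromosome. Dlx6os1, Dlx6 and Dlx5 form a second cluster on chromosome 6, where all 5235 bases of the Dlx6 span lie within that of Dlx6os1 on the other strand, and Dlx5 follows 9236 bases after Dlx6. Sp8 is on chromosome 12. The counting kept the strands apart, so reads of Dlx6 and Dlx6os1 were assigned separately.

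The promoters of Dlx2, Sp8 and Sp9 are shown because these genes fell together, as described below, and because their start in RefSeq lies within 1 base of the start in GENCODE. Each sequence runs 5′ to 3′ on the strand of the gene and holds the bases before its start, from the RefSeq table on GRCm38.p6. Capitals mark GGGCGG or its complement CCGCCC, a GC box of the kind that SP-family proteins bind. Dlx2 is chr2:71546755-71547004 on the minus strand, Sp8 is chr12:118846079-118846328 on the plus strand, and Sp9 is chr2:73271676-73271924 on the plus strand.

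Dlx2: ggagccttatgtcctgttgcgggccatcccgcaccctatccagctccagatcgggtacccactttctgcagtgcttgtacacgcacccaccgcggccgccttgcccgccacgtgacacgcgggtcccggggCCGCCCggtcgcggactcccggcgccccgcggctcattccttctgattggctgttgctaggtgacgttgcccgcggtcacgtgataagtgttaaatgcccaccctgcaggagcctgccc

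Sp8: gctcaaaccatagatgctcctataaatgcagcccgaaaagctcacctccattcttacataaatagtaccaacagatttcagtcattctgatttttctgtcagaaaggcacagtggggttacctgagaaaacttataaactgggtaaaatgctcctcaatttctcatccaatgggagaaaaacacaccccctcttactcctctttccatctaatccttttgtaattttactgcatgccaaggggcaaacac

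Sp9: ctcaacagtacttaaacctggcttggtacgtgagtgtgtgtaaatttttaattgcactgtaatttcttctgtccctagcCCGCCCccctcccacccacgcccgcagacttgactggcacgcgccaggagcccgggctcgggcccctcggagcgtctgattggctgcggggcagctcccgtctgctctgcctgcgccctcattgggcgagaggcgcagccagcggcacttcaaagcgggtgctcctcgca

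Dlx2 held 1 GC box, 119 bases before its start, and Sp9 held 1, 171 bases before its RefSeq start. The Sp8 window held none. RefSeq lists further starts of Sp8 inside the gene, and of those 2 windows, not shown, 1 held a GC box 14 bases before its start and the other a TAATTA 188 bases before its start. GGGCGG stood on either strand in 32.7% of the 32851 windows of 250 bases in the table. TAATTA is the core that homeodomain proteins bind. None of the 3 windows printed held it, it stood in 4.84% of all windows, and it cannot overlap a GC box. Both Dlx6os1 windows, not shown because their starts differ from that in GENCODE, held it, 1 at 2 places and the other at 1. GC content was 66.4% for Dlx2 and 62.4% for Sp9 but 40.8% for Sp8, against a median of 52.4% over all windows. Of the 9 genes, 7 had at least 1 window in the table. Dlx5 and Dlx6 are named only.

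The summed level of the 9 genes averaged 267 CPM over the 10 P6 mice, with a range of 70.2 to 565 CPM. It averaged 64.3 CPM over the 12 P15 mice (15.7 to 123 CPM) and 20.8 CPM over the 12 mice aged 8 weeks (10.04 to 35.3 CPM). Dlx1 was the most abundant of the 9 in CPM at P6, with 31.5% ± 2.45 of the sum. At 8 weeks Gad1 held that place with 39.6% on average (18.4 to 53.0% in single mice). Gad1 and Gad2 together made up 18.9% ± 4.86 of the sum in P6 mice, 34.1% ± 9.63 in P15 mice and 58.8% ± 12.9 in those of 8 weeks, shares that were not tested.

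Dlx1, the first gene of the Dlx1/Dlx2 pair, ran at P6 from 19.1 CPM in P6 male 5 through a median of 77.9 to 203 CPM in P6 female 5. At P15 its lowest, median and highest levels were 3.50, 19.1 and 45.6 CPM, and at 8 weeks they were 0.910, 2.40 and 5.16 CPM. No 8-week mouse reached the lowest P6 mouse, whereas 6 of the 12 P15 mice did not lie below it. Dlx2, its partner, had 7.81, 35.2 and 91.5 CPM at P6, 1.58, 6.61 and 21.0 CPM at P15, and 0.264, 1.43 and 2.39 CPM at 8 weeks. It showed the same layout, with P6 and 8 weeks apart and P15 overlapping both.

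Dlx5, which acts downstream of Dlx1 and Dlx2, had a lowest level of 2.78, a median of 11.4 and a highest level of 29.1 CPM at P6, then 0.228, 1.60 and 4.59 CPM at P15. At 8 weeks it ran from 0 through 0.382 to 0.818 CPM, and 2 of the 12 mice were at or under 3 counts. Dlx6, its neighbour, was the lowest of the 9 at P6 with 0.981, 2.61 and 7.91 CPM. It had 0.182, 0.435 and 1.62 CPM at P15 and 0.181, 0.678 and 1.53 CPM at 8 weeks, so that its later ages overlapped over nearly their whole range and the highest 8-week mice reached into the P6 range. Dlx6os1, transcribed from the strand opposite to Dlx6, was more abundant than Dlx6, with 9.65, 31.95 and 63.4 CPM at P6. Its levels were 1.502, 7.62 and 19.0 CPM at P15 and 0.255, 1.68 and 3.34 CPM at 8 weeks, when it did not overlap with P6.

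Sp8 had 3.13, 15.5 and 42.2 CPM at P6, 0.546, 4.203 and 8.23 CPM at P15, and 0.157, 0.648 and 1.03 CPM at 8 weeks. Sp9, its paralogue, had 5.88, 21.0 and 47.4 CPM at P6, 0.546, 3.97 and 8.50 CPM at P15, and 0.274, 0.736 and 1.76 CPM at 8 weeks. For both genes, P6 and 8 weeks were apart. Gad1, which encodes the larger decarboxylase, ran from 14.7 through 29.6 to 52.8 CPM at P6, from 4.69 through 11.6 to 23.3 CPM at P15, and from 2.40 through 7.43 to 14.8 CPM at 8 weeks. Its highest 8-week mouse stood just above its lowest P6 mouse. Gad2, the smaller decarboxylase, had 6.14, 14.9 and 27.3 CPM at P6, 2.46, 6.35 and 15.4 CPM at P15, and 1.31, 3.51 and 7.99 CPM at 8 weeks. Its ages overlapped too, and 9 of the 12 8-week mice lay below the lowest P6 mouse.

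**Figure D1:**
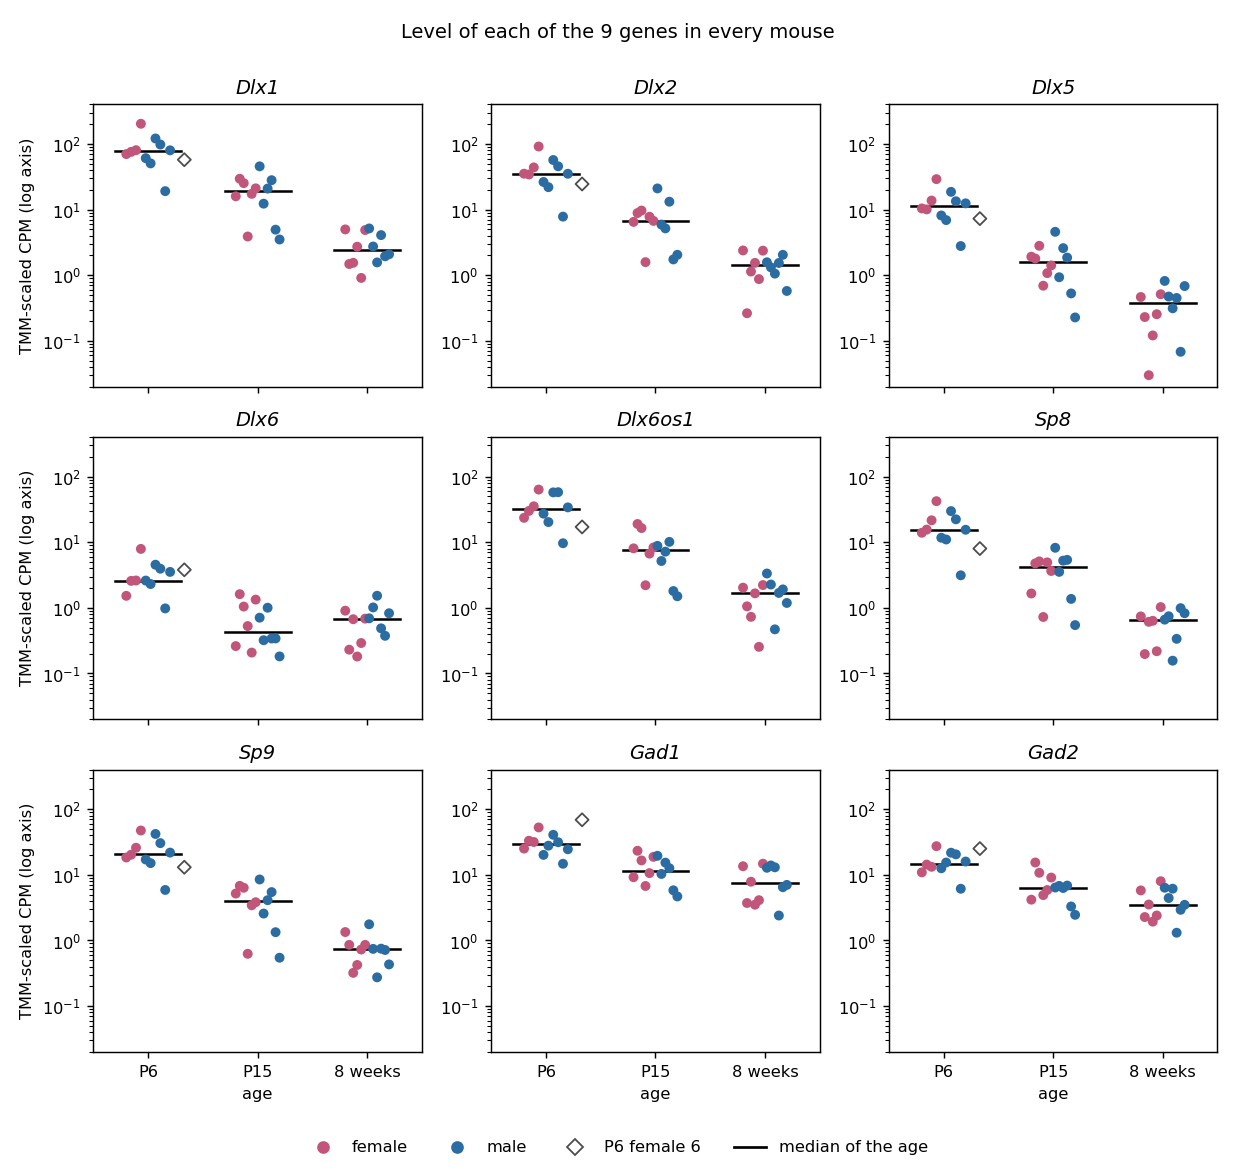
TMM-scaled CPM (log axis) of each of the 9 genes in every mouse at P6, P15 and 8 weeks, with females in pink, males in blue, P6 female 6 as an open diamond and the median of each age as a line. A Dlx5 level of 0 in 8 weeks female 3 is drawn at 0.03 CPM. Dlx1, Dlx2, Dlx5, Dlx6os1, Sp8 and Sp9 are apart between P6 and 8 weeks, while Dlx6, Gad1 and Gad2 overlap.

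The same mice stood at the ends of the range for gene after gene. P6 female 5 was the highest of its age for all 9 genes and P6 male 5 the lowest for all 9. P15 male 1 was the highest for 5 genes and P15 female 2 for 4, and P15 male 6 was the lowest for 8. P6 male 5 and P15 male 6 also had the highest summed microglial marker level of their ages, 19613 and 45648 CPM, and the lowest summed neuroblast level, 1687 and 693 CPM. Their part in the ranks was not tested. At 8 weeks the ends were spread over more mice, with at most 4 highest genes in 1 mouse. P6 female 6, the mouse left out, had Gad1 at 68.9 CPM, above all 10 other P6 mice, and Gad2 at 25.1 CPM, below P6 female 5 alone. Its Dlx1 (57.5 CPM), Dlx2 (24.5 CPM), Sp8 (8.01 CPM) and Sp9 (13.1 CPM) lay within the range of the other P6 mice. That library held 4948 CPM of microglial markers.

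Levels per length (RPKM over the union of exons) put the genes in another order. At P6 Dlx1 led with 15.9 ± 9.13 RPKM (SD, n = 10), followed by Dlx2 with 14.0, Dlx6os1 with 6.93, Dlx5 with 5.55, Sp9 with 4.84, Sp8 with 4.10, Gad1 with 3.95, Gad2 with 2.69 and Dlx6 with 1.37 RPKM. Along this order each gene stood above the next by more than the SD of the difference over the mice, with the exception of Sp8 and Gad1, whose log2 difference was -0.13 ± 0.57. At 8 weeks Gad1 led with 1.13 ± 0.616 RPKM (n = 12), followed by Gad2 with 0.689, Dlx1 with 0.527, Dlx2 with 0.487, Dlx6os1 with 0.303, Dlx6 with 0.277, Dlx5 with 0.162, Sp9 with 0.152 and Sp8 with 0.131 RPKM. There the difference between Gad1 and Gad2 (0.65 ± 0.25 on the log2 scale) was the single one beyond its SD. At P15 Dlx1 (3.53 RPKM) still stood above Dlx2 (2.63 RPKM) and Dlx5 (0.752 RPKM) above Dlx6 (0.277 RPKM) by more than the SD, and the other neighbours did not.

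To assess how the genes changed over postnatal development, ages were compared in 1 fit over the 34 mice. From P6 to P15, 7 of the 9 genes fell by more than 2-fold (edgeR quasi-likelihood fit, TREAT, FDR < 0.05 over all genes tested), where 4.85% of all genes tested were called lower and 4.87% higher. Dlx5 showed the largest fall of the 9, a log2FC of -2.91 ± 0.40 (SE), or 7.50-fold, with an FDR of 6.27e-05. Sp9 fell 6.12-fold, Dlx2 5.43-fold, Dlx6 5.11-fold, Sp8 5.06-fold, Dlx6os1 4.73-fold and Dlx1 4.60-fold, with FDR of 0.00456 or less. Gad1 had a log2FC of -1.27 ± 0.30 (FDR 0.416) and Gad2 of -1.25 ± 0.28 (FDR 0.445). Both decarboxylase genes passed the test without a fold threshold, with FDR of 0.00047 and 0.000357, as did 61.8% of all genes tested. None of the 9 genes had all P15 mice below all P6 mice, which 7.72% of all genes did.

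From P15 to 8 weeks, 6 of the 9 genes fell by more than 2-fold, where 3.07% of all genes tested were called lower and 1.2% higher. Dlx1 changed by -2.74 ± 0.39 (FDR 0.00034), Sp8 by -2.64 ± 0.40 (FDR 0.00107), Dlx2 by -2.42 ± 0.39 (FDR 0.00263), Sp9 by -2.39 ± 0.39 (FDR 0.00376), Dlx6os1 by -2.29 ± 0.38 (FDR 0.00501) and Dlx5 by -2.26 ± 0.43 (FDR 0.0171). Gad1 (-0.57 ± 0.29), Gad2 (-0.72 ± 0.27) and Dlx6 did not pass, each with an FDR of 1. Dlx6 had a log2FC of -0.01 ± 0.36 in the main fit and positive values, up to 0.14, in others. The 6 calls depended on the tool: limma-voom, which the study used, with the same 2-fold TREAT threshold called 0 of the 9 genes, with FDR from 0.114 to 0.615 for the 6, and 6 of the 9 at an unadjusted p under 0.05. It gave log2FC from -2.57 to -2.18 for the 6 genes that edgeR called, and called 1.48% of all genes lower in this comparison. DESeq2 with the 2-fold threshold called 6, and its share over all genes was not computed. Without P15 male 1, Dlx5 had a log2FC of -2.004 and an FDR of 0.0566, which left 5 genes called. None of the 9 genes had all 8-week mice below all P15 mice, which 1.72% of all genes did.

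Over the whole interval from P6 to 8 weeks all 9 genes fell by more than 2-fold, where 12.4% of all genes tested were called lower and 11.5% higher. The median log2FC of the 9 was -4.86, against 0.04 over all genes tested. Dlx5 had a log2FC of -5.16 ± 0.46, a 35.8-fold fall (FDR 4.34e-10). Sp9 had -5.00 ± 0.43, or 32.0-fold, Sp8 -4.98 ± 0.44, or 31.5-fold, Dlx1 -4.94 ± 0.43, or 30.6-fold, and Dlx2 -4.86 ± 0.42, or 29.0-fold. Dlx6os1 followed with -4.53 ± 0.41, or 23.1-fold. The other 3 genes fell less: Dlx6 5.15-fold (FDR 0.000392), Gad2 3.92-fold (FDR 0.00109) and Gad1 3.59-fold (FDR 0.00468). For 6 of the 9 genes every 8-week mouse lay below every P6 mouse, which held for 14.8% of all genes tested. The 3 age comparisons share mice, so their values are set side by side and not treated as separate evidence. Leaving out both P6 female 5 and P6 male 5, a choice made after the data were seen, kept the counts at 7, 6 and 9. In that fit 4.97%, 3.08% and 12.2% of all genes tested were called lower.

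**Figure D2:**
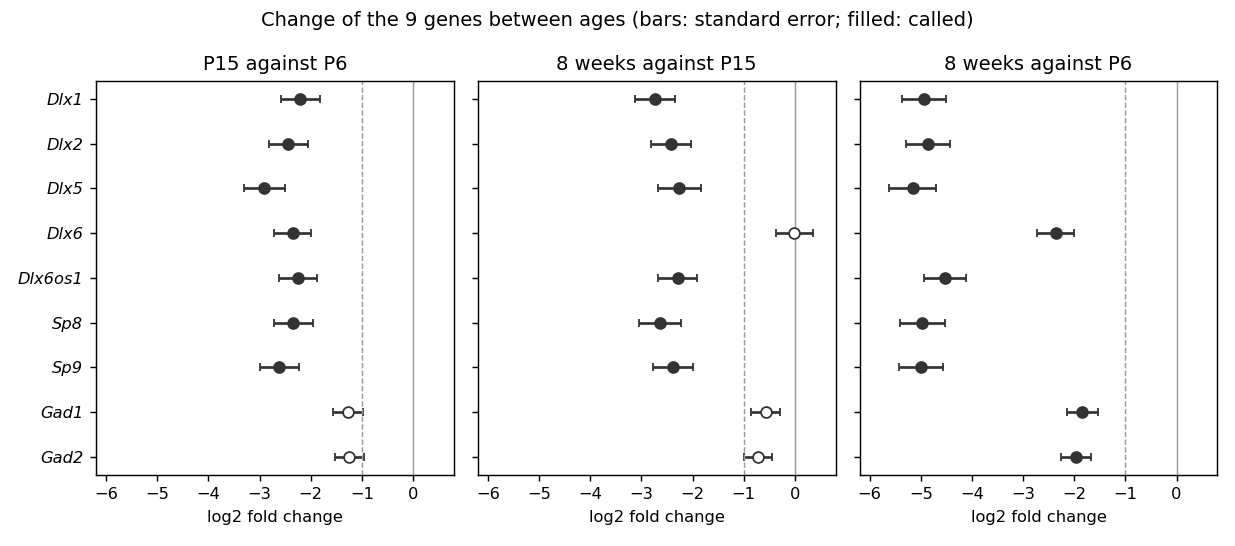
log2 fold change of the 9 genes in the 3 age comparisons, with bars for the standard error, filled points for genes called at 2-fold and FDR < 0.05, and a dashed line at 2-fold lower. Dlx1, Dlx2, Dlx5, Dlx6os1, Sp8 and Sp9 lie between -5.16 and -4.53 from P6 to 8 weeks, and Dlx6, Gad1 and Gad2 between -2.36 and -1.84.

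To ask whether genes of a pair changed by unequal amounts, the log2 ratio of 2 genes was taken in each mouse (prior count of 2) and its mean compared between ages in 24 permutation tests with 100000 resamples, two-sided, of which 10 passed after Benjamini-Hochberg adjustment. The Dlx1/Dlx2 ratio was 1.12 ± 0.12 (SD) over the 10 P6 mice, 1.33 ± 0.34 over the 12 P15 mice and 0.99 ± 0.70 over the 12 mice aged 8 weeks, and no difference passed the permutation test (adjusted p from 0.156 to 0.648). The paralogues Sp8/Sp9 had ratios of -0.45 ± 0.19, -0.09 ± 0.56 and -0.35 ± 0.95, and Gad2/Gad1 had -0.95 ± 0.26, -0.90 ± 0.33 and -1.02 ± 0.25. Neither passed between any 2 ages.

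The ratios with Dlx6 passed. The Dlx5/Dlx6 log2 ratio was 1.91 ± 0.39 at P6 and 1.25 ± 0.97 at P15, a difference of -0.66 that did not pass (permutation test, adjusted p = 0.121), and it was -0.86 ± 1.10 at 8 weeks. The difference from P15 to 8 weeks was -2.11 and that from P6 was -2.77, each with an adjusted p of 0.00018 by permutation test. The highest 8-week ratio was 0.22, and every P6 ratio was at least 1.45. Dlx6os1/Dlx6 was 3.45 ± 0.32 at P6, 3.40 ± 0.96 at P15 and 1.12 ± 1.23 at 8 weeks, lower than at P15 by 2.28 and than at P6 by 2.33 (adjusted p of 0.00018 by permutation test for each). Dlx6 at 8 weeks rested on 6 to 39 counts per mouse and Dlx5 on 0 to 26, which limits the precision of single ratios.

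Dlx2/Gad1 set a regulator of the lineage against an enzyme of GABA synthesis. Its log2 ratio was 0.25 ± 0.51 at P6, -0.97 ± 0.70 at P15 and -2.52 ± 0.97 at 8 weeks, with differences of -1.22, -1.55 and -2.77 from P6 to P15, from P15 to 8 weeks and from P6 to 8 weeks. Each passed the permutation test, with adjusted p of 0.00171, 0.00113 and 0.000192. Against Dcx, which encodes the microtubule protein doublecortin of migrating neuroblasts, Dlx2 moved the other way: Dlx2/Dcx was -2.69 ± 0.69 at P6, -2.38 ± 0.91 at P15 and -1.07 ± 0.85 at 8 weeks, 1.62 higher at 8 weeks than at P6 (permutation test, adjusted p = 0.00076). Dcx itself fell by 6.29 ± 0.46 on the log2 scale from P6 to 8 weeks. Against Neurod1, a transcription factor of granule and other excitatory neurons, Dlx2 was 1.58 higher at 8 weeks than at P15 (permutation test, adjusted p = 0.0105) and differed by 0.82 from P6, which did not pass (permutation test, adjusted p = 0.307).

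**Figure D3:**
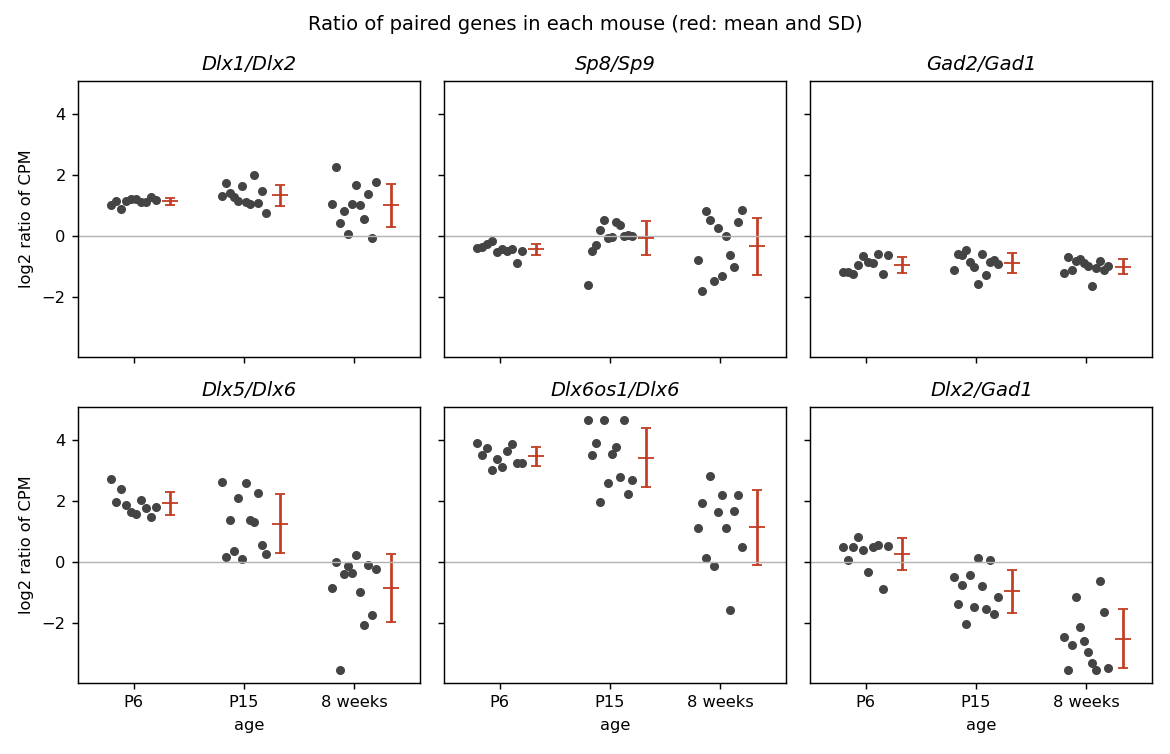
log2 ratio of CPM of 6 gene pairs in each mouse at P6, P15 and 8 weeks, with the mean and SD of each age in red. Dlx1/Dlx2, Sp8/Sp9 and Gad2/Gad1 have means within 0.37 log2 units, while Dlx5/Dlx6, Dlx6os1/Dlx6 and Dlx2/Gad1 are lower at 8 weeks than at P6.

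To learn whether the genes varied together between mice of 1 age, the log2 CPM of each of the 36 pairs was correlated within each age. The family of 216 relations also held each gene against Dcx, Neurod1, the microglial receptor gene P2ry12 and the library total. At P6 all 36 pairs passed by permutation test after adjustment by Pearson r, and 35 by both r and Spearman rho, with r from 0.86 to 0.99 and a median of 0.93. Dlx2 and Dlx5 had the highest r, 0.99 (rho 0.98), and Dlx6 and Gad1 the lowest, 0.86 (rho 0.67). The P6 values leaned on the mice at the ends of the range. Without the 2 mice farthest from the median of the first gene, r ran down to 0.49, while the lowest of the 15 pairs among Dlx1, Dlx2, Dlx5, Dlx6os1, Sp8 and Sp9 was 0.865.

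At P15, 29 of the 36 pairs passed (27 by both measures), with a median r of 0.84. All 15 pairs among those 6 genes passed, with r from 0.83 to 0.97, and with a lowest r of 0.67 without the 2 farthest mice. Dlx6 passed with Gad1 (r = 0.79) and Gad2 (r = 0.79) and with none of the other 6 genes (r from 0.33 to 0.60). At 8 weeks, 6 of the 36 pairs passed by both measures and the median r was 0.35. The 6 were Gad1 with Gad2 (r = 0.97, rho = 0.93), Dlx1 with Dlx6os1 (r = 0.86, rho = 0.87), Dlx6 with Gad1 (r = 0.78, rho = 0.78), Dlx6os1 with Sp8 (r = 0.71, rho = 0.69), Dlx6 with Gad2 (r = 0.71, rho = 0.73) and Dlx1 with Dlx2 (r = 0.64, rho = 0.76). Without the 2 farthest mice, r for Dlx6os1 and Sp8 was 0.39, so that relation rested on those mice, and the other 5 had r from 0.62 to 0.94. The 6 are named after their values were seen. Median counts per mouse at 8 weeks were 10 for Dlx5, 20.5 for Sp9, 21 for Sp8 and 22.5 for Dlx6, against 232 for Gad1 and 109 for Gad2, so counting error weighed more on the first 4. Whether correlations differed between ages was not tested.

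Outside the group, by Pearson r Dcx passed with 5, 8 and 4 of the 9 genes in P6, P15 and 8-week mice, and Neurod1 with 0, 8 and 2. By both r and rho the counts were 5, 7 and 4 for Dcx and 0, 7 and 2 for Neurod1. P2ry12 passed with 0, 1 and 0 of the 9, with a median r of -0.55, -0.49 and -0.12. The library total passed with none at any age.

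**Figure D4:**
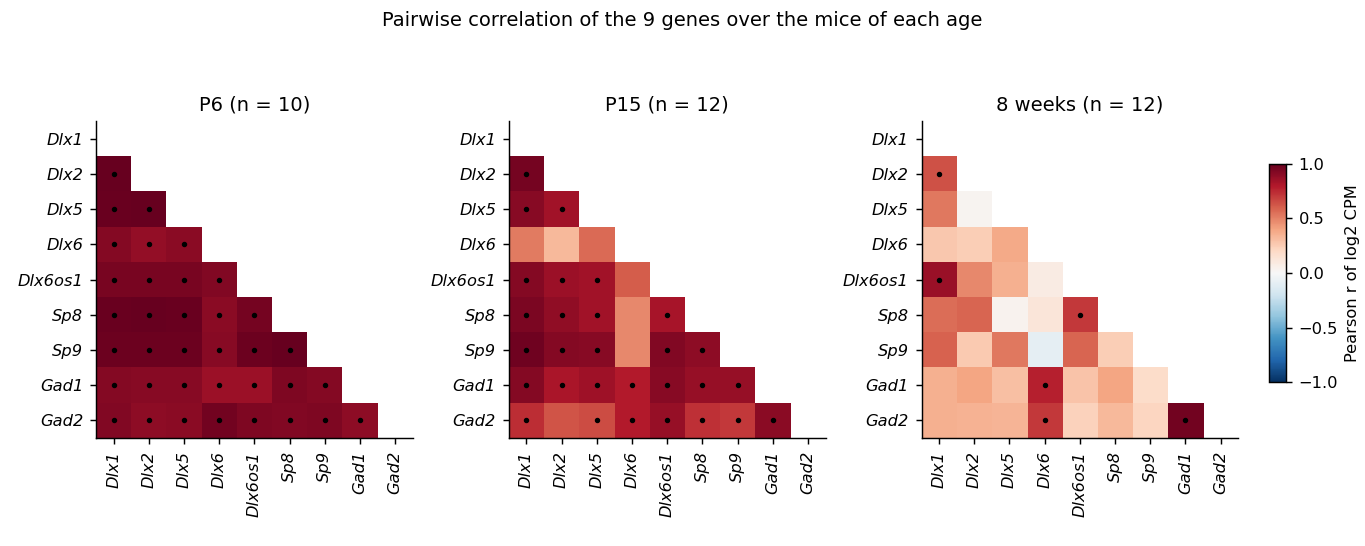
Pearson r of log2 CPM for each pair of the 9 genes over the mice of P6, P15 and 8 weeks, in colour from -1 to 1, with a dot where the adjusted permutation p was under 0.05. Dots stand on all 36 pairs at P6, on 29 at P15 and on 6 at 8 weeks.

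Genes were next ranked by how closely their deviations from the mean of their age followed the mean deviation of the 9 genes over the 34 mice, given as a description with no p. Over all 17612 genes the median r was -0.08 and the 99th percentile 0.80. Among genes on no list, the closest was Synpr, a synaptic vesicle protein (r = 0.93), followed by Tiam2, an activator of the GTPase Rac (0.93), Bcl11a, a zinc-finger transcription factor (0.92), and Mpped2 (0.91). Others of the 10 closest were Nol4 (0.89), the actin-binding profilin Pfn2 (0.88), the adhesion gene Sdk2 (0.87), the calcium channel subunit Cacna1c (0.87) and Ccdc120 (0.87). From P6 to 8 weeks Synpr fell by 2.88 ± 0.35 on the log2 scale (FDR 3.91e-06), from 20.7 to 2.85 CPM on average. All 10 were called lower over that interval. Of the genes on the lists, Meis2, a homeobox gene of the striatal and olfactory bulb lineage, had an r of 0.94.

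The lists of related genes placed these changes beside the rest of the lineage. The counts of all lists from P6 to 8 weeks stand against the 12.4% of all genes called lower and the 11.5% called higher. Of the 20 GABAergic lineage regulators tested, 14 were called lower at 8 weeks than at P6 and none higher, with a median log2FC of -2.44. Among the 3 with the highest P6 level, Pax6 had a log2FC of -3.57 ± 0.43 (FDR 6.35e-07) and Meis2 of -2.63 ± 0.32 (FDR 8.46e-06), while Tshz1 had -1.02 ± 0.12 and did not pass (FDR 0.612). Pax6 also serves other lineages, such as cerebellar granule cells and astrocytes. In the step from P6 to P15, 7 of the 20 were called lower, where 4.85% of all genes were. From P15 to 8 weeks 1 of the 20 was, a share near the 3.07% of all genes. That gene was Dlx1as, the transcript antisense to Dlx1, with -2.21 ± 0.48 (FDR 0.0409), named after its value was seen.

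Of the 18 migrating neuroblast genes, 13 were called lower from P6 to 8 weeks and none higher, with a median of -3.67. Tubb2b, a neuronal tubulin, had a log2FC of -2.97 ± 0.25 (FDR 3.45e-09) and Dpysl3, a growth cone protein, of -5.86 ± 0.35 (FDR 1.79e-14), while Sox4 had -0.42 ± 0.09 (FDR 1). The paper describes Dpysl3 as enriched in amoeboid microglia of the first week after birth. Its r in the ranking above was 0.89, and its cell of origin was not tested. Of the 6 neural progenitor genes, 4 were called lower, with Fabp7 at -3.88 ± 0.26, Nes at -2.87 ± 0.12 and Hes5 at -3.35 ± 0.37. In the ranking above, r was -0.33 for Nes, 0.68 for Fabp7, 0.73 for Hes5 and 0.57 for Sox3, also called. Sox1 and Sox2 had r of 0.85 and 0.81 and were not called. Genes of other neurons were called lower too: 8 of the 10 forebrain excitatory genes were (median -2.86), and 7 of the 9 cerebellar granule neuron genes were called lower and 2 higher (median -3.65). Neurod2 had -3.42 ± 0.40, Bhlhe22 -3.81 ± 0.35, and the vesicular glutamate transporter gene Slc17a7 0.85 ± 0.31 (FDR 1). Zic1 had -3.65 ± 0.41, Zic2 -3.16 ± 0.40 and Neurod1 -5.56 ± 0.58.

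Genes that handle GABA after its synthesis had list medians near 0. Of the 6 genes of GABA transport and breakdown, 1 was called lower at 8 weeks than at P6 and the list median was -0.03. The transporter gene Slc6a11 (0.52 ± 0.31, FDR 1) and the transaminase gene Abat (0.24 ± 0.21, FDR 1) did not pass. The gene called was Slc32a1, the vesicular GABA transporter, with -2.08 ± 0.30 (FDR 0.00052), named after its value was seen. Of the 12 GABA-A receptor subunits, 1 was called lower and 3 higher (median -0.03): Gabrb1 had 2.69 ± 0.28 (FDR 4.56e-07), and Gabrg1 1.34 ± 0.29 (FDR 0.145). Of the 12 interneuron peptides and calcium-binding proteins tested, 3 were called lower and 2 higher (median -0.42). Reln, an extracellular glycoprotein that granule cells and other neurons also make, had -4.73 ± 0.42, Calb2 -2.27 ± 0.39 and Nos1 -1.58 ± 0.28. The mature neuron list had 1 of 7 called lower and 1 higher, with Rbfox3 at -2.05 ± 0.33 (FDR 0.00179), Syn1 at -1.39 ± 0.27 (FDR 0.0951) and Syt1 at -0.11 ± 0.29 (FDR 1).

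Non-neuronal lists are set against the same shares of all genes, 12.4% lower and 11.5% higher. Of the 8 microglial genes 6 were called higher at 8 weeks than at P6 (median 1.42), with Csf1r at 1.30 ± 0.13 (FDR 0.014) and Cx3cr1 at 1.34 ± 0.13. Of the 7 astrocyte genes 3 were called higher (median 1.17), with Slc1a2 at 2.43 ± 0.27, Gja1 at 1.90 ± 0.27 and Slc1a3 at 1.17 ± 0.24 (FDR 0.304). The oligodendrocyte lineage had 3 of 10 called lower and 4 higher (median 0.07), with Pdgfra at -3.43 ± 0.25, Olig1 at -1.75 ± 0.28 and Mbp at 1.26 ± 0.31 (FDR 0.245). Border macrophage and monocyte genes had 2 of 9 called in each direction (median -0.12), with Lyve1 at -2.57 ± 0.16, Mrc1 at -1.29 ± 0.18 (FDR 0.0623) and F13a1 at -0.60 ± 0.16 (FDR 1). Of the 5 endothelial genes 2 were called higher (median 0.42), with Pecam1 at 1.29 ± 0.14 (FDR 0.0192), Cldn5 at 0.42 ± 0.31 (FDR 1) and Cdh5 at -0.17 ± 0.23 (FDR 1).

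**Figure D5:**
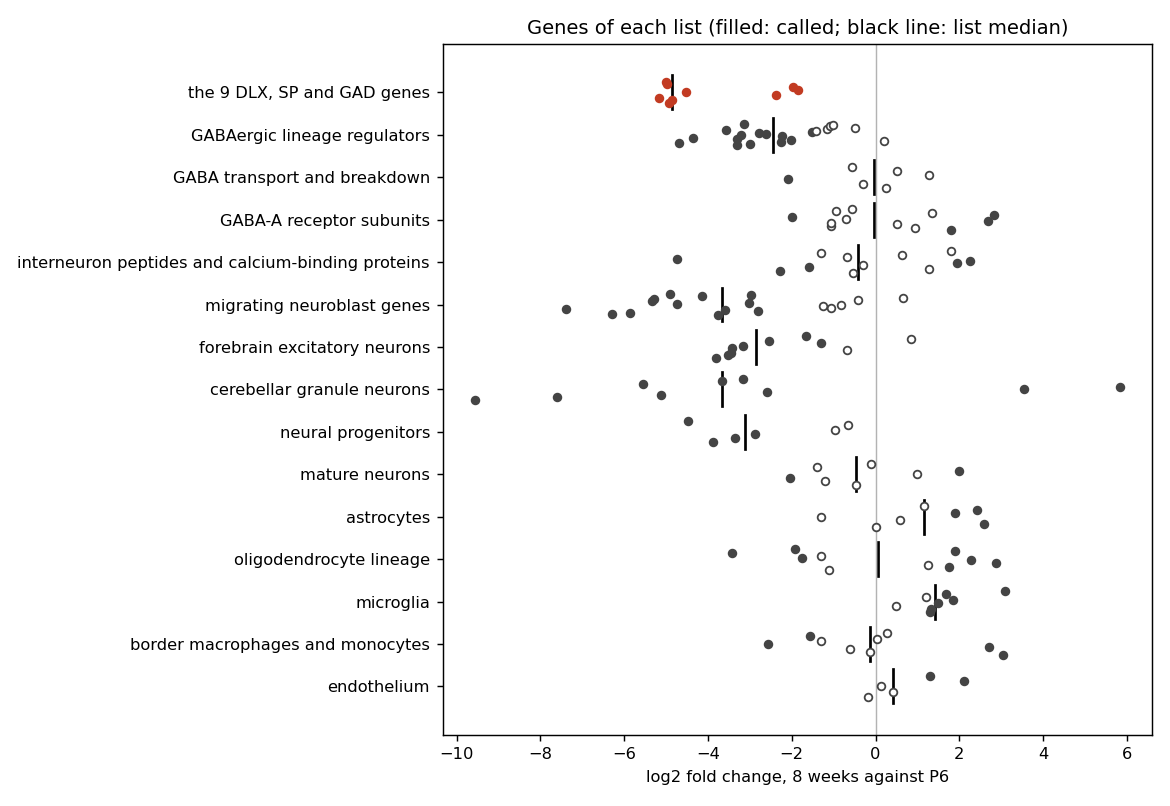
log2 fold change from P6 to 8 weeks of the genes tested in each list, with the 9 DLX, SP and GAD genes in red, filled points for genes called at 2-fold and FDR < 0.05, and the list median as a black line. The medians are -4.86 for the 9 genes, -3.67 for migrating neuroblast genes, -2.44 for GABAergic lineage regulators, -0.03 for GABA-A receptor subunits and 1.42 for microglia.

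Levels of the 9 genes were also compared between the sexes. At each age 0 of the 9 genes were called (edgeR, TREAT), where 0.0454% of all genes tested were. The 27 log2FC of males against females ran from -0.81 to 0.81. The lowest unadjusted p without a fold threshold was 0.103, so that none was under 0.05, and limma-voom and DESeq2 also called 0. In the test of whether the change with age differed between the sexes, the lowest FDR over the 27 tests was 0.484, and 1 of the 27 had an unadjusted p under 0.05. That was Dlx6 from P15 to 8 weeks, with a difference of 1.49 ± 0.72 in log2FC (unadjusted p = 0.0477 in the fit across all genes, FDR 0.87), males against females.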

How the data were processed

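CD45+ microglia were immunopanned from whole brain, and directional mRNA libraries were sequenced as paired-end reads. The authors mapped the reads to GRCm38/mm10 with STAR and counted fragments per gene with featureCounts in its reverse-stranded mode. They deposited raw counts for 55401 genes in 35 mice, 1 column per mouse, with no filter. The release of the gene annotation is not given in the sources used here. Genes were named from GENCODE M21 (GRCm38), which held 55141 of the identifiers. The symbol Dlx6os1 matched 2 of them, and the antisense long non-coding RNA was used, since the other had 6 counts over all mice.

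Fits used edgeR 4.0.16 in R 4.3.3, with limma 3.58.1 and DESeq2 1.42.0 as other tools, while correlations and ratios used Python 3.11.15. A gene was kept where 5 or more of the 34 mice reached 0.5 CPM, libraries were scaled by TMM, and a quasi-likelihood fit (robust) had 1 mean for each of the 6 groups of age and sex. Age comparisons average the sexes. Genes counted as called where the FDR of glmTreat for a change beyond 2-fold was below 0.05 (Benjamini-Hochberg over 17612 genes). Standard errors come from the same fit. Log2 CPM used a prior count of 2. The scripts were tested on simulated counts. No 2 libraries of a group were copies, with a chi-square per gene of at least 12.8 over 85 pairs. The labels name no batch. All tests were two-sided. Without molecular identifiers, the floor of 3 counts covers counting error alone.

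The 9 genes and the lists were chosen with earlier results of these data known. Besides the 9, the text names the 3 genes of each list with the highest CPM at P6, the 10 genes on no list with the closest pattern, and genes said to be named after their values were seen. Some genes that this rule takes are not reported here. Each mouse gave 1 library, and P6 female 6 enters only where stated. Alternatives were all 35 mice, other scalings, filters and tools, no fold threshold, a fit of the compared groups, age without sex, a replicate block, and each mouse left out in turn.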

Additional observations from a re-analysis of the deposited data

Results flagged for a closer look

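Of 54 sets of mice (9 genes in 6 groups of age and sex) tested with Dixon's criterion at the 95% level, 4 held a mouse far from the rest of its group, where chance flags about 1 in 20. Dlx1 in P6 female 5 was 203 CPM, the highest of the 4 P6 females by a gap that took up most of their range. P15 female 4 was the lowest of the 6 P15 females for Dlx1 at 3.89 CPM, for Dlx2 at 1.58 CPM and for Sp9 at 0.627 CPM.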

How the results depend on the processing

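With at least 10 counts in every mouse only 3 of the 9 genes could be tested, and the counts called lower were 1 from P6 to P15, 1 from P15 to 8 weeks and 3 from P6 to 8 weeks. limma-voom with TREAT called 0 from P15 to 8 weeks in place of 6, and limma-voom without a fold threshold, chosen after the data were seen, called 7, where these settings called 1.48% and 22.5% of all genes lower. The cause was not tested. All other alternatives kept the counts within 1.5 times, with 7 to 7, 5 to 6 and 9 to 9 genes when each mouse was left out in turn. Dlx6 from P15 to 8 weeks turned to a positive log2FC of 0.0208 with the replicate block, 0.0448 with limma-voom with or without the fold threshold, and values from -0.16 to 0.14 without single mice, positive for 11 of the 34. The Dlx6os1/Dlx6 ratio from P6 to P15 turned to 0.0563 with a prior count of 0.5 and 0.0672 with all 35 mice. Of 1251 log2FC under an alternative, 1224 kept their direction and call, as did 70 of 72 ratios. Pairs past the threshold ran from 30 to 36 at P6, 29 to 31 at P15 and 5 to 6 at 8 weeks. Mice with the same number are different animals. Over 32 same-number pairs r ran from -0.30 to 0.57, with a median of 0.08 against -0.01 for other numbers. Of 34 mice, 10 correlated best with their own number. Whether this exceeds chance was not tested. With the replicate block 7, 6 and 9 genes were called, as in the main fit. The share of all genes called with the block was not computed.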

Other observations

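Gad1-ps, a processed pseudogene of Gad1 on chromosome 10, was looked at after its value was seen. It rose from 0.496 ± 0.194 CPM (SD, n = 10) at P6 through 1.69 ± 0.557 (n = 12) at P15 to 3.55 ± 0.865 CPM (n = 12) at 8 weeks, a log2FC of 2.96 ± 0.21 (SE) from P6 to 8 weeks (edgeR, FDR 7.5e-11), while Gad1 fell by 1.84 ± 0.30. A pseudogene of this kind is a near copy of its parent's mRNA. The counting flags listed in the paper include no option for reads that map to more than 1 place. How such shared reads bear on either level was not tested. Its level at 8 weeks is below that of Gad1, 8.59 CPM on average.

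The other DLX genes looked at, Dlx3 and Dlx4, were at or under 3 counts in at least 5 mice of every age, and so was the antisense transcript Gad1os. Dlx1as averaged 5.61 CPM in P6 mice (SD 3.04), 1.01 CPM in P15 mice (SD 0.781) and 0.216 CPM in those of 8 weeks (SD 0.139), and it fell by 4.70 ± 0.49 on the log2 scale from P6 to 8 weeks (edgeR, FDR 2.43e-08).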
